A study of Mus musculus with 7 samples.

Results

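The genes described here code for the proteins that build, anchor or mineralise the extracellular structures lying over the sensory epithelium of the utricle: Oc90, Otol1, Sparcl1, Nox3, Otop1, Tecta, Tectb, Otog, Otogl and Otoa. The 10 genes were listed by name, with earlier results of these data known, from 32285 genes in the count files, and all 10 passed the filter on low counts that 17155 genes passed. They were measured by RNA sequencing of cultured utricles from wild-type P2 mice, which per the methods were C57BL/6J. All utricles were exposed to 2 mM gentamicin for 24 h, which kills hair cells, and were harvested on day 5 after the injury. Those of the group Gent+Fos OE (4 libraries) also received AAV-PHP.eB Fos for 48 h, a virus in which the CMV promoter, active in many cell types, drives mouse Fos. The group Gent (3 libraries) is labelled with gentamicin alone, and whether its utricles received a control virus is not settled. Each library pooled 12 utricles, so the spread is one between pools. Per the labels, otoconia and a membrane that they call the tectorial membrane were taken off the utricles of both groups before culture.

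In the utricle, hair cells are deflected by a gelatinous membrane loaded with otoconia, crystals of calcium carbonate grown on a protein matrix. Otoconin-90, the product of Oc90, is the main soluble protein of mammalian otoconia, and otolin-1 is a collagen-like scaffold. The gel is built of tectorins and otogelins, non-collagenous glycoproteins that also form the tectorial membrane of the cochlea, and otoancorin fixes such gels to the cell surface beneath. The NADPH oxidase Nox3 and the proton channel Otop1 are required for otoconia to form in mice, and mutant mice lacking either have balance defects.

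Library totals ran from 27879889 to 34335214 counts, and Fos stood at 149 to 167 CPM (counts scaled to library size by TMM) with AAV-PHP.eB Fos against 34.6 to 40.6 CPM without it. Of the marker genes of each cell type, 8 of 9 for hair cells and 7 of 8 for supporting cells passed the filter, with summed levels of 655 to 847 against 589 to 738 CPM and 1214 to 1334 against 1048 to 1382 CPM. Slc26a5, the motor protein of cochlear outer hair cells, reached at most 14 counts. Otos, listed with it, measured 31.5 ± 18.6 CPM in Gent+Fos OE (SD, n = 4) against 16.4 ± 4.91 CPM (n = 3), with overlapping groups. Whether Otos marks cochlear tissue in these pools was not tested. Melanocyte markers were lower in Gent+Fos OE, at 30.6 to 35.8 CPM in sum against 64.8 to 106 CPM, with Dct and Tyrp1 past the test among 4 of 4 lower, and all 5 macrophage markers had lower means, 668 to 1178 CPM in sum against 1282 to 1585 CPM, with 0 past the test in edgeR, 4 lower at an unadjusted p under 0.05, and 2 (Csf1r and C1qa) called in DESeq2. Summed levels overlapped between the groups for mesenchyme (6884 to 10504 against 8588 to 12282 CPM), dark cells and roof epithelium (600 to 762 against 536 to 694 CPM), endothelium (40.4 to 46.1 against 27.7 to 44.8 CPM), glia (310 to 468 against 267 to 426 CPM) and neurons (at most 58.1 against 54.7 CPM), and the erythroid list, with Hba-a2 at 0 in every library, summed to at most 0.293 CPM. Within these lists and that of hair cells, single markers stood apart between the groups without a call in edgeR. Bmp4 of the roof list was lower (log2 fold change -0.85, edgeR adjusted p = 0.0667, called in DESeq2), as was Dcn of mesenchyme (-0.56, edgeR adjusted p = 0.140). Cdh5 of endothelium (0.77), Erbb3 of glia (0.54) and Myo6 of hair cells (0.47) were higher. All were chosen after their values were seen. The part of these shifts in the results below was not tested, and in whole tissue fewer cells of a type and less RNA per cell cannot be told apart.

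The otoconial matrix genes were among the most abundant transcripts of the explants in both groups. Levels are compared between genes in RPKM (reads per kilobase, scaled by library size), the only scale used here across genes. Otol1 averaged 409 RPKM over the 7 libraries and stood at rank 62 of the 17155 genes tested. Sparcl1, a matrix protein of the SPARC family found in otoconia, averaged 139 RPKM, and Oc90 averaged 116 RPKM. The gel proteins followed, with Otog at 77.3 RPKM, Tecta at 59.8 RPKM, Tectb at 25.8 RPKM and Otoa at 25.7 RPKM. Otop1 averaged 21.0 RPKM, Otogl 11.9 RPKM and Nox3 1.29 RPKM, the last of which was above only 26.7% of the genes tested. Neighbours in this order overlapped in their ranges over libraries with 3 exceptions. Otol1, at 333 to 477 RPKM, lay above Sparcl1, at 105 to 172 RPKM. Otop1 (17.0 to 24.8 RPKM) lay above Otogl (5.37 to 16.1 RPKM), and Otogl above Nox3 (0.465 to 2.15 RPKM). The order of the group means differed in places. Otog stood at 43.2 ± 1.70 RPKM (SD, n = 3) and Tecta at 46.7 ± 3.68 RPKM in Gent, against 103 ± 24.7 RPKM (n = 4) and 69.6 ± 19.0 RPKM in Gent+Fos OE. Tectb stood at 39.9 ± 14.4 RPKM and Otoa at 24.8 ± 4.56 RPKM in Gent, against 15.2 ± 4.79 RPKM and 26.4 ± 4.60 RPKM in Gent+Fos OE. Oc90 (130 ± 30.2 RPKM) and Sparcl1 (125 ± 18.4 RPKM) in Gent, against 105 ± 18.2 RPKM and 148 ± 30.6 RPKM in Gent+Fos OE, also changed places by their means, within overlapping ranges.

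**Figure D1:**
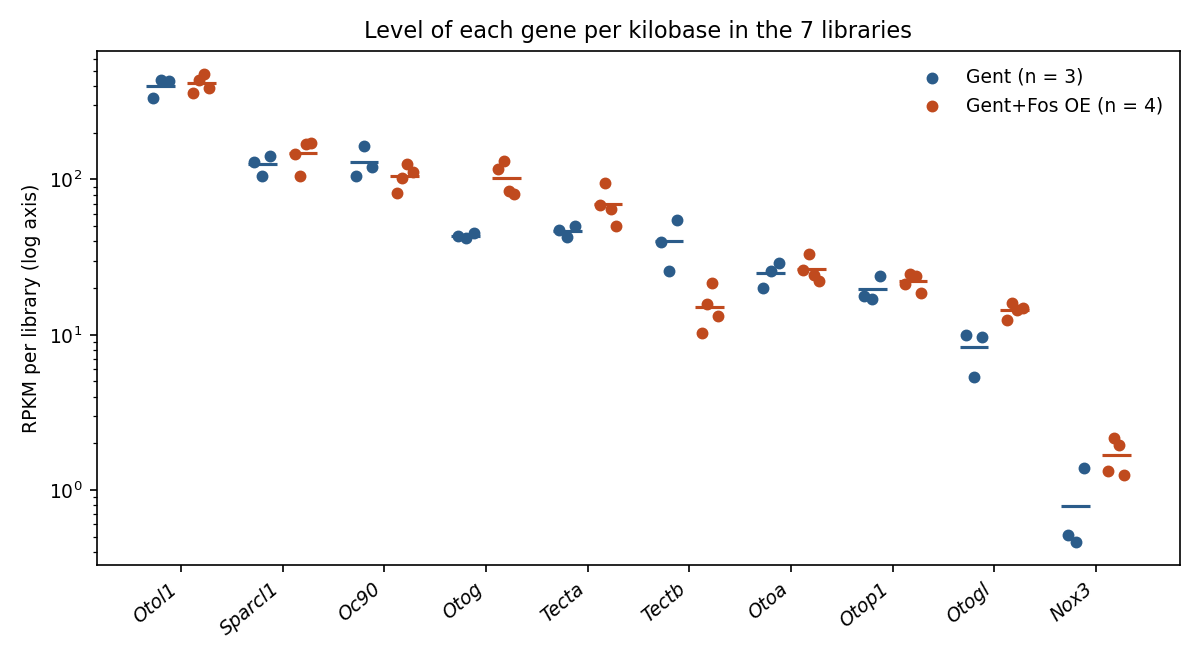
RPKM of each gene in each library on a log axis (blue points, 3 Gent libraries, and orange points, 4 Gent+Fos OE libraries, with lines at the group means). Otol1 lies between 333 and 477 in every library, and the groups are apart for Otog, Tectb and Otogl.

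To ask how these genes differed with AAV-PHP.eB Fos, Gent+Fos OE was compared with Gent in edgeR's quasi-likelihood test, fitted over all 17155 genes. If Gent received no virus, effects of the virus itself and of Fos cannot be told apart here. Calls required an adjusted p (Benjamini-Hochberg, over all genes) under 0.01 together with a log2 fold change beyond 0.25 in size. Otog was the 1 gene of the 10 called higher, and 0 were called lower, against 0.134% of all tested genes called higher and 0.280% called lower. Tectb, lower in Gent+Fos OE, had an adjusted p under 0.05 only, as did 1.19% of all genes in that direction. At an unadjusted p under 0.05 stood 4 genes with higher levels (Otog, Otogl, Tecta and Nox3) and 1 with a lower level (Tectb), against 11.1% and 13.4% of all genes. The median log2 fold change of the 10 genes was 0.21, with 8 above 0 and 2 below, and that of all tested genes was -0.00. Groups did not overlap for Otog and Otogl, higher, and for Tectb, lower, as for 11.3% and 12.2% of all genes. With DESeq2 the same 3 genes were called at the same limits, 2 higher and 1 lower, against a background of 1.44% and 1.73%.

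**Figure D2:**
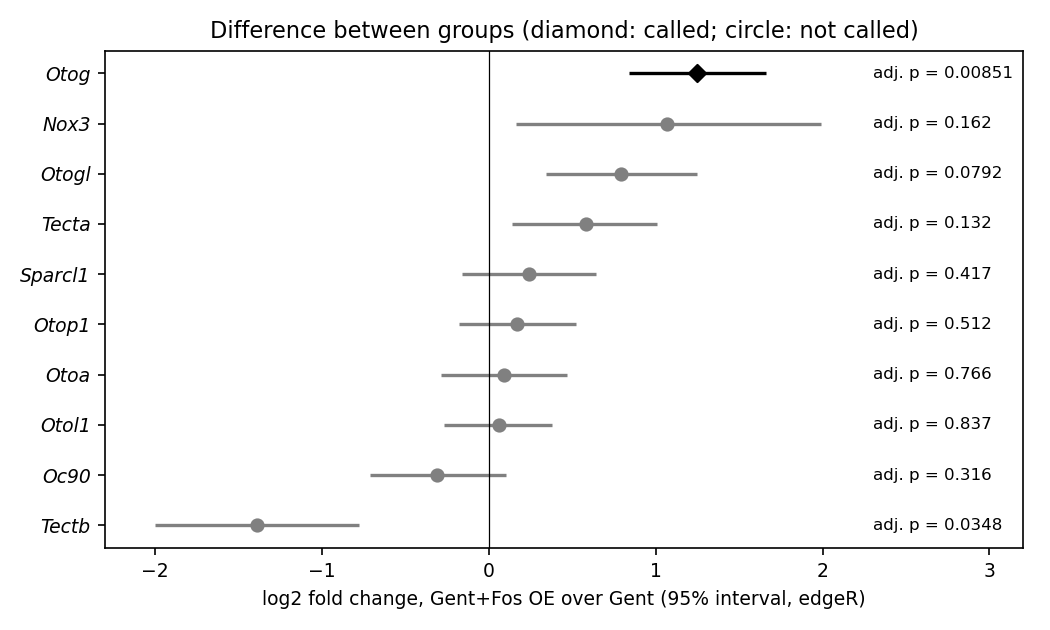
Log2 fold change of Gent+Fos OE over Gent with its 95% interval for each gene, from edgeR, with adjusted p-values beside it. The interval of Otog runs from 0.84 to 1.66 and that of Tectb from -2.00 to -0.78.

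Otog codes for otogelin, a large mucin-like glycoprotein of the acellular gels (ENSMUSG00000009487, chr7:46240987-46311434, plus strand, mm10, exons of 10349 bases in sum). It measured 1205, 1354, 870 and 830 CPM with Fos overexpression and 445, 431 and 466 CPM in Gent. All libraries with Fos overexpression lay above all those without it, and the Gent libraries were the tightest of any of the 10 genes, with an SD of 3.94% of the mean. Mean levels were 1065 ± 256 CPM (SD, n = 4) and 447 ± 17.6 CPM (n = 3), a 2.38-fold rise with a log2 fold change of 1.25 (SE 0.18, edgeR adjusted p = 0.00851). An exact two-sided permutation test on the mean log2 CPM gave p = 0.0286, the smallest that 35 regroupings allow. The adjusted p lies close to the limit of 0.01. It passed with Gent replicate 2 left out (0.00747) and missed the limit when any one of the other 6 libraries was left out, with values up to 0.0415, while the log2 fold change stayed between 1.11 and 1.35.

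Otogl codes for otogelin-like, the paralog of otogelin (ENSMUSG00000091455, chr10:107760531-107912134, minus strand, exons of 8763 bases). Its levels were 109, 141, 127 and 131 CPM in Gent+Fos OE and 87.2, 47.0 and 85.3 CPM in Gent. Groups did not overlap here either, and the lowest library was Gent replicate 2. The log2 fold change was 0.79 (SE 0.21, edgeR adjusted p = 0.0792), with means of 127 ± 13.3 CPM (n = 4) and 73.2 ± 22.7 CPM (n = 3). With Gent replicate 2 left out, the log2 fold change was 0.55 (edgeR adjusted p = 0.0271). Without each of the 7 libraries in turn it ran from 0.55 to 0.94, with edgeR adjusted p from 0.0271 to 0.199. Per kilobase, Otog stood 4.32 to 9.36 times above Otogl within a library.

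Tecta and Tectb code for alpha- and beta-tectorin, zona pellucida domain proteins that assemble into the striated-sheet matrix of the tectorial membrane and occur in the utricular membrane as well. The pair stood on opposite sides of 0. Tecta (ENSMUSG00000037705, chr9:42329619-42399929, minus strand, exons of 7411 bases) measured 511, 706, 476 and 369 CPM in Gent+Fos OE and 353, 316 and 369 CPM in Gent. Highest was Gent+Fos OE replicate 2, and replicate 4 of that group stood level with the highest Gent library. The log2 fold change was 0.58 (SE 0.20, edgeR adjusted p = 0.132). Tectb (ENSMUSG00000024979, chr19:55180733-55196313, plus strand, exons of 3820 bases) measured 39.0, 60.0, 82.3 and 50.9 CPM in Gent+Fos OE and 151, 98.1 and 208 CPM in Gent. Every Gent library lay above every Gent+Fos OE library. Means were 58.1 ± 18.3 CPM (n = 4) and 152 ± 55.0 CPM (n = 3), 2.62-fold apart, with a log2 fold change of -1.39 (SE 0.27, edgeR adjusted p = 0.0348) and an exact permutation p of 0.0286. Gent replicate 2 was the lowest Gent library for Tectb, and without it the log2 fold change was -1.63 (edgeR adjusted p = 0.00413), past both limits. It was also past them in DESeq2 (adjusted p = 0.000105) and with no filter on low counts (edgeR adjusted p = 0.00315). By contrast, the edgeR adjusted p was 0.104 without Gent+Fos OE replicate 1 (log2 fold change -1.25) and 0.103 without Gent replicate 3 (-1.10), and the values without each of the 7 libraries ran from 0.00413 to 0.104.

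Otog and Tectb had the largest fitted differences in each direction as reported. Nox3 exceeded Otog with the length trend removed (1.30 against 0.95), with a replicate block and that removal (1.58 against 1.03), and without Gent replicate 3 (1.77 against 1.28). The 250 bases before the RefSeq transcription starts of Otog and Tectb (GRCm38.p6, the build of the files) are shown, 5′ to 3′ on the plus strand. They lie at chr7:46240737-46240986 for Otog and chr19:55180476-55180725 for Tectb. Capitals mark the letters TATAA where they begin 40 to 20 bases before the start, as they do in Tectb alone of this pair.
Otog: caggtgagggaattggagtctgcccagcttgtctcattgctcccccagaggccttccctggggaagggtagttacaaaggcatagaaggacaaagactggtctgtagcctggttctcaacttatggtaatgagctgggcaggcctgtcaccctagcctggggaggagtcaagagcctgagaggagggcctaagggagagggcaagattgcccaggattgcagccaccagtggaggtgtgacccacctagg
Tectb: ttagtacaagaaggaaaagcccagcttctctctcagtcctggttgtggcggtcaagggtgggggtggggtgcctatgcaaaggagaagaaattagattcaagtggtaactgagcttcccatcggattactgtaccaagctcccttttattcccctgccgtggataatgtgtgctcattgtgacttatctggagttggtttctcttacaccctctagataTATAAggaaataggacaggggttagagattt
Fos binds DNA with Jun proteins at the AP-1 site, so windows of 300 bases (250 before to 50 after the start) were searched on both strands for TGACTCA, whose other strand reads TGAGTCA, and for the CRE letters tgacgtca, which do not overlap it. RefSeq windows matched 7 of the 10 genes (Otog, Tecta, Tectb, Otol1, Otoa, Otop1 and Nox3), 8 windows in all since Tecta has 2 starts. None of the 8 held either motif. Over all 32851 RefSeq windows, 5.20% held the AP-1 letters and 1.79% the CRE letters. With 8 windows, finding none is near these background shares, and it says nothing of sites elsewhere. The search for TATAA, on the sense strand and added after the windows were read, matched Tectb, at 31 bases before the start, and 3.52% of all windows. GC content was 58.7% for Otog and 48.3% for Tectb against a median of 52.7%.

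Among the proteins of the otoconia themselves, levels differed little between the groups. Oc90 (ENSMUSG00000015001, chr15:65876053-65912397, minus strand, exons of 1912 bases) measured 156, 195, 240 and 212 CPM in Gent+Fos OE and 201, 313 and 232 CPM in Gent. The groups overlapped, and Gent replicate 2 was the highest library. Its log2 fold change was -0.31 (95% interval -0.71 to 0.10, edgeR adjusted p = 0.316) and -0.11 without that library. Otol1 (ENSMUSG00000027788, chr3:70007613-70028708, plus strand, exons of 2161 bases) measured 782, 941, 1031 and 843 CPM against 719, 944 and 932 CPM. The difference of 0.06 on the log2 scale (95% interval -0.27 to 0.38, edgeR adjusted p = 0.837) was smaller than the spread between libraries and took either sign as single libraries were left out. Sparcl1 (ENSMUSG00000029309, chr5:104079111-104113733, minus strand, exons of 2937 bases) stood at 426, 312, 498 and 506 CPM against 381, 309 and 415 CPM, with a log2 fold change of 0.24 (95% interval -0.16 to 0.64, edgeR adjusted p = 0.417). For all 3 genes the interval leaves room for a change of up to 0.38 to 0.71 in size on the log2 scale.

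Nox3, an oxidase needed for otoconia to form, was the least abundant of the 10 genes (ENSMUSG00000023802, chr17:3635240-3696261, minus strand, exons of 1792 bases). It measured 2.38, 3.86, 3.51 and 2.25 CPM in Gent+Fos OE and 0.924, 0.833 and 2.48 CPM in Gent. Gent replicates 1 and 2 were low, while Gent replicate 3 lay within the range of the other group. These levels rest on 26 to 126 counts per library, and the 26 counts of Gent replicate 2 carry an exact Poisson 95% interval of 17.0 to 38.1 for counting error only. The log2 fold change was 1.07 (SE 0.42, 95% interval 0.16 to 1.99, edgeR adjusted p = 0.162), and 1.77 with Gent replicate 3 left out (edgeR adjusted p = 0.0747). Otop1, a proton channel whose mutants lack otoconia (ENSMUSG00000051596, chr5:38275972-38304217, plus strand, exons of 3442 bases), stood at 72.7, 85.4, 82.5 and 63.7 CPM against 61.4, 58.7 and 82.3 CPM, with overlapping groups and a log2 fold change of 0.17 (95% interval -0.18 to 0.52, edgeR adjusted p = 0.512). Gent replicate 3 was the highest Gent library for both genes. Otoa, which codes for otoancorin (ENSMUSG00000034990, chr7:121081650-121163097, plus strand, exons of 8439 bases), stood at 221, 277, 204 and 188 CPM against 168, 217 and 243 CPM, with a log2 fold change of 0.09 (95% interval -0.29 to 0.47, edgeR adjusted p = 0.766).

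Gene length moved with the comparison. Over the genes tested, the log2 fold change correlated with gene length at a Spearman rho of 0.38 (across genes, which are not independent replicates), and deviations of single libraries did so at between -0.50 (Gent replicate 2) and 0.33 (Gent+Fos OE replicate 1). Otog is longer than 92.2% of tested genes, Otogl than 87.5%, Otoa than 86.2% and Tecta than 81.3%, while Oc90 and Nox3 are longer than 16.4% and 14.7%. With a smooth trend over length removed from every library, the log2 fold change of Otog was 0.95 (edgeR adjusted p = 0.0155), no longer called, that of Otogl 0.61 and that of Tecta 0.41. Oc90 then stood at -0.05, Otoa at -0.14 and Nox3 at 1.30. The value of Tectb, whose length is close to the median of 4084 bases, was -1.33. With the trend removed and Gent replicate 2 left out as well, a setting chosen after the data were seen, Otog (log2 fold change 1.08, edgeR adjusted p = 0.00863) and Tectb (-1.59, 0.00456) were both called.

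**Figure D3:**
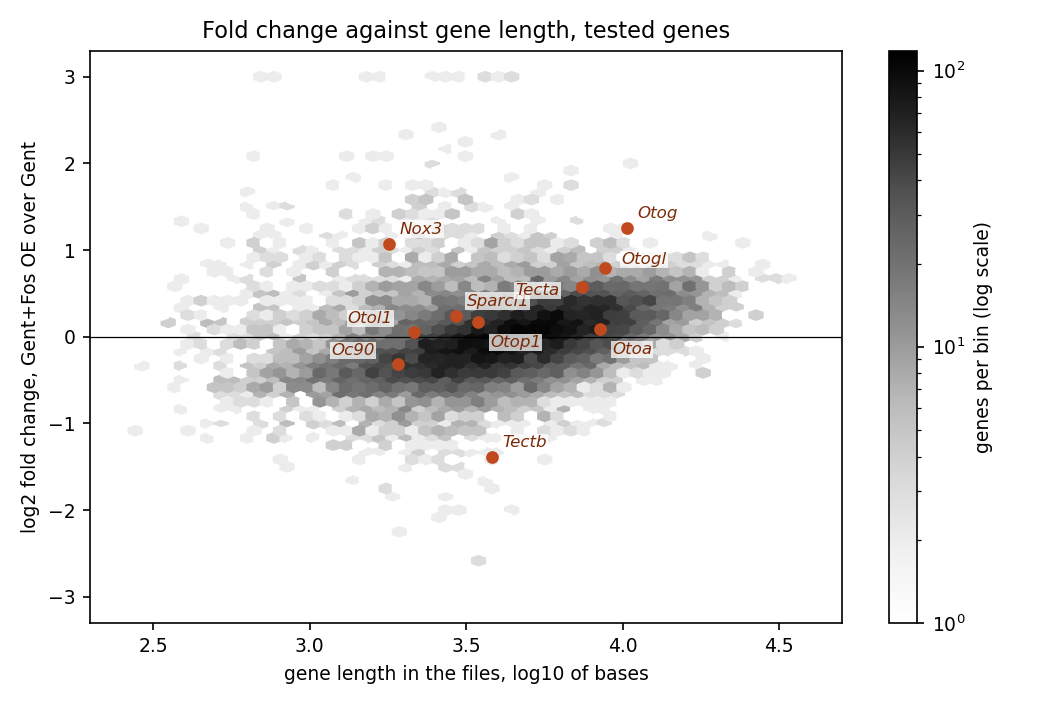
Log2 fold change of Gent+Fos OE over Gent against gene length (log10 of bases) for the tested genes, shaded by the number of genes in each bin on a log scale, with values beyond 3 in size drawn at 3, and the 10 genes as orange points. Fold changes lean upward with length (Spearman rho 0.38), with Otog above and Tectb below most genes of their length.

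**Figure D4:**
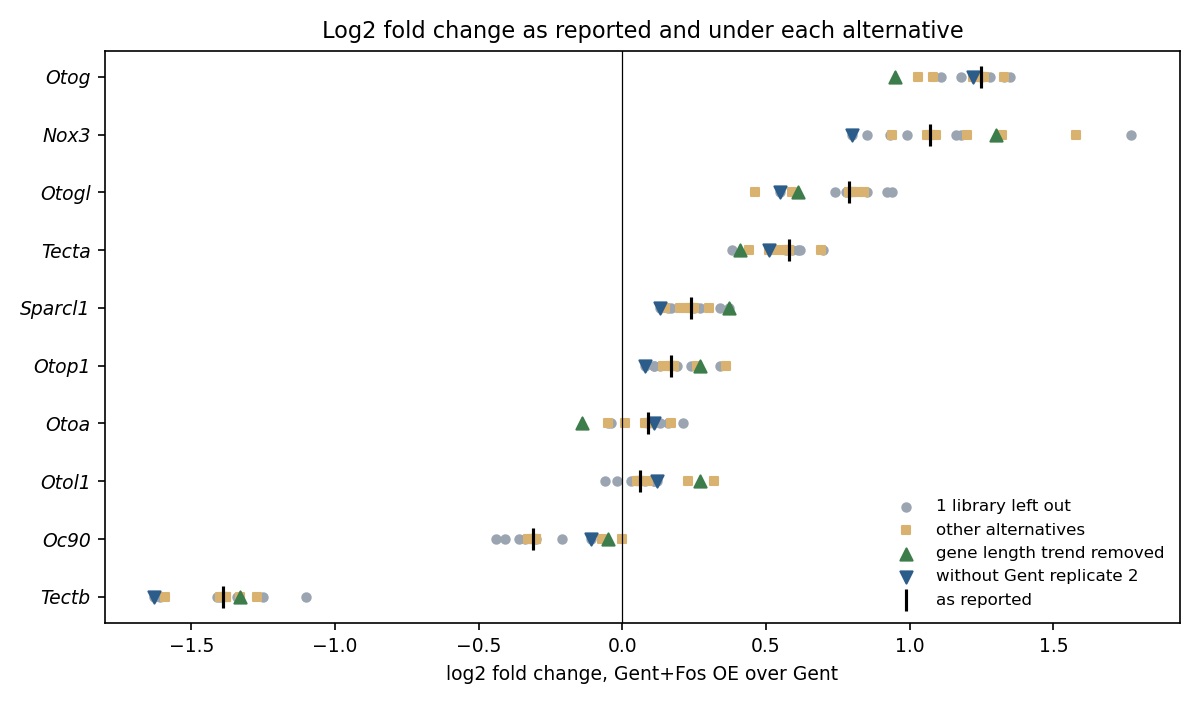
Log2 fold change of each gene as reported (black bar) and under 17 alternatives (points), with the removal of the length trend and the omission of Gent replicate 2 marked by triangles. Otog stays between 0.95 and 1.35 and Tectb between -1.63 and -1.10, while Otol1 and Otoa cross 0.

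The 10 genes did not vary as a block over the libraries. Among the 45 pairs, Pearson's r of log2 CPM over the 7 libraries, which include the group difference, ran from -0.83 for Tectb and Otog to 0.89 for Tecta and Otog and for Nox3 and Otop1. With group means taken out, r was -0.17 for Tectb and Otog, 0.88 for Tecta and Otog and 0.96 for Nox3 and Otop1. As a description over 7 libraries, the genes whose levels ran most like Otog were Plxna3 (r = 0.995), Slc16a8 (0.995) and Tdrd5 (0.994), and 301 of 14297 genes had an r over 0.9 with it. Those most like Tecta were Tbx3 (0.990), Lmx1a (0.989), a transcription factor of the non-sensory epithelium, and Acacb (0.986). For Tectb they were Vcp (0.982), Nsun2 (0.967) and Ifi213 (0.966). Otogl ran with Cfap47 (0.997), St6gal1 (0.994) and Cep290 (0.994), among 1318 genes over 0.9. The closest genes were Cmtm8 (0.987), Coprs (0.980) and Rbis (0.978) for Oc90, and Insc (0.968), Fam114a2 (0.961) and Sncg (0.956) for Otol1. Sparcl1 was most like Tiprl (0.969), Il1rl2 (0.961) and Zfp868 (0.952), and Otoa most like Ogdhl (0.987), Phyhip (0.972) and Mb21d2 (0.967). Nox3 was most like Slc9a2 (0.994), Larp1b (0.987) and Sh3gl2 (0.982), and Otop1 most like Etnk2 (0.971), Klhl14 (0.967) and Tox (0.955).

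Other genes of the acellular gels and their attachment were counted from a list of 11, all of which passed the filter. In edgeR 0 were called, with 2 higher and 1 lower at an unadjusted p under 0.05. DESeq2 called 1, Col2a1, lower. By sign, 6 had higher and 5 lower levels in Gent+Fos OE, and the median log2 fold change was 0.05. Col2a1, the type II collagen chain found in the tectorial membrane and in cartilage, stood at 1853 ± 270 CPM against 3176 ± 637 CPM, a log2 fold change of -0.78 (SE 0.17, edgeR adjusted p = 0.0470) with no overlap between the groups. Strc, which codes for stereocilin, the protein that couples stereocilia to such gels, and Zpld1, a zona pellucida domain protein, had log2 fold changes of 0.51 and 0.48 at edgeR adjusted p of 0.174 and 0.196, and were named after their values were seen.

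Calcified matrix genes other than the otoconial ones were listed as 8 genes, of which 4 passed the filter. Neither edgeR nor DESeq2 called any (0 genes), and at an unadjusted p under 0.05 edgeR had 1 higher and 2 lower. Mgp, the matrix Gla protein that inhibits calcification, stood at 709 ± 140 CPM against 1039 ± 110 CPM (log2 fold change -0.55, edgeR adjusted p = 0.106). Spp1, osteopontin, stood at 1440 ± 107 CPM against 1809 ± 111 CPM (log2 fold change -0.33, edgeR adjusted p = 0.146), again without overlap. Dmp1, an acidic phosphoprotein of bone and dentin, was low at 4.66 ± 2.74 CPM against 1.76 ± 1.56 CPM, and the groups overlapped. The median log2 fold change of the 4 was -0.19.

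Of the partners of Nox3 and the other NADPH oxidases, 6 of 9 passed the filter, and 5 of these had lower levels in Gent+Fos OE. In edgeR 0 were called, with 1 higher and 2 lower at an unadjusted p under 0.05, and DESeq2 called 2, Cyba and Ncf1, lower. Cyba, the p22phox subunit that Nox3 shares with other oxidases, stood at 91.2 ± 12.5 CPM against 151 ± 36.2 CPM (log2 fold change -0.73, edgeR adjusted p = 0.0601). Ncf1, the p47phox organiser of the phagocyte oxidase, stood at 43.3 ± 9.49 CPM against 77.4 ± 11.8 CPM (log2 fold change -0.84, edgeR adjusted p = 0.0504). Macrophage markers, whose sum is given above, had lower values in the same libraries, and their part in these values was not tested. Nox4 stood higher, at 21.1 ± 5.21 CPM against 13.0 ± 2.78 CPM (log2 fold change 0.70, edgeR adjusted p = 0.114). The list's median log2 fold change was -0.27. Otop2 and Otop3, the paralogs of Otop1, reached at most 4 and 2 counts in a library and were not tested.

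Transport of calcium, bicarbonate and protons in the endolymph was followed by 17 genes, of which 15 passed the filter, 11 with higher and 4 with lower levels. Both edgeR and DESeq2 called 0 of them, and edgeR had 3 higher and 1 lower at an unadjusted p under 0.05. Atp2b2, the plasma membrane calcium pump of the hair bundle that supplies calcium to the otoconia, measured 13.6 ± 2.61 CPM against 9.32 ± 0.207 CPM (log2 fold change 0.55, edgeR adjusted p = 0.122), its paralog Atp2b3 measured 3.06 ± 1.27 CPM against 1.15 ± 0.442 CPM (1.42, 0.102), and Atp2b1 measured 291 ± 11.0 CPM against 203 ± 69.2 CPM (0.52, 0.173). Atp2b1 and Atp2b2 are long genes (exons of 15218 and 12612 bases), and fold changes leaned upward with length as given above. S100a1, a calcium-binding protein of hair cells, overlapped between the groups at 647 ± 78.2 CPM against 961 ± 453 CPM. The median log2 fold change of the 15 was 0.22, and Trpv5 had 0 counts in every library.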

How the data were processed

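RNA was sequenced from P2 mouse utricle explants, 4 Gent+Fos OE and 3 Gent libraries. The authors deposited raw read counts per gene. Per the file headers these came from featureCounts 2.0.6 on mm10 genes, without strand and without multi-mapping reads, with both reads of a pair counted on their own. The methods name another genome and other versions, and 3 replicates per condition where the labels list 4 and 3. All 7 libraries were used, and groups were taken from the labels. Symbols were taken from GENCODE vM39 by Ensembl ID where RefSeq agreed (24669 genes).

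Groups were compared with edgeR 4.0.16 in R 4.3.3 (filterByExpr, TMM, quasi-likelihood F-test, Benjamini-Hochberg adjustment), with DESeq2 1.42.0 and limma-voom (limma 3.58.1) as alternatives. These fits, and edgeR with a length trend removed, were tested on simulated data, and the other alternatives were not. Further alternatives were halved counts, RLE normalization, a minimum of 10 counts in every library, no filter, removal of a length trend (loess span 0.3), a replicate block with and without that removal, and leaving out each library. RPKM used the gene lengths of the files. The genes, lists and tests were chosen with earlier results of these data known. All 10 genes are named, then genes of each list with an adjusted p under 0.05 or, failing that, an unadjusted p under 0.05, and the 3 genes most correlated with each of the 10. Markers of the cell types were named only in part, without that rule.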

Additional observations from a re-analysis of the deposited data

How the results depend on the processing

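Of the 10 genes, 8 kept the sign of their log2 fold change under all 17 alternatives, and 16 of these alternatives were planned. Otoa was at -0.14 with the length trend removed, at -0.05 with the block and that removal, and between -0.05 and 0.21 as single libraries were left out, and Otol1 between -0.06 and 0.12. The causes were not tested. Otog was called in 7 of the 17 alternatives (log2 fold change 0.95 to 1.35, adjusted p 1.46e-08 to 0.0554), Tectb in 4 (adjusted p 0.000105 to 0.104) and Otogl in 1, DESeq2.

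Genes called higher and lower, 23 and 48 of all those tested, were 273 and 327 in DESeq2, 63 and 141 with no filter, 45 and 96 with the length trend removed and Gent replicate 2 left out, and 2 to 45 and 3 to 93 with single libraries left out. With the length trend removed, 36 were called higher and 65 lower. Of the 10 genes, 2 were called higher in DESeq2, 0 with at least 10 counts in every library, 0 with the length trend removed, 0 with the replicate block, 0 with the block and that removal, and 0 to 1 with single libraries left out. Called lower was 1 gene in DESeq2, 1 with no filter, 1 with the length trend removed and Gent replicate 2 left out, and 0 to 1 with single libraries left out.

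Same-numbered libraries correlated at 0.06, -0.04 and 0.03 in their deviations from the group means. With so few pairs, these values cannot settle whether the replicate number pairs the samples. With the number as a replicate block, 0 genes were called higher and 0 lower. Nox3 rests on 26 to 126 counts a library, and its log2 fold change was 1.06 with counts halved against 1.07 as reported, and 0.80 to 1.77 with single libraries left out.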

Other observations

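Ratios between gel proteins within a library, per kilobase, were formed after the values had been seen, so their tests describe and do not support the differences above. Tecta over Tectb was 6.74, 6.07, 2.98 and 3.74 in the Gent+Fos OE libraries and 1.21, 1.66 and 0.914 in the Gent libraries, so that alpha-tectorin RNA exceeded beta-tectorin RNA in all libraries but Gent replicate 3. Otog over Tectb was 11.4, 8.34, 3.90 and 6.02 against 1.09, 1.62 and 0.827. Otog over Tecta was 1.69, 1.37, 1.31 and 1.61 against 0.903, 0.977 and 0.904. None of these 3 ratios overlapped between the groups, and each gave an exact permutation p of 0.0286, the smallest possible, or 0.0477 after Benjamini-Hochberg adjustment over the 5 ratios formed. Each of the 3 sets a longer gene over a shorter one, and the length trend given above was not removed from them. Its part in these ratios was not tested. Otog over Otogl, 5.39 to 9.36 against 4.32 to 7.77, and Otol1 over Oc90, 3.52 to 4.42 against 2.67 to 3.56, overlapped, with exact permutation p of 0.286 and 0.0857 (0.286 and 0.107 adjusted).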
